A study of Rattus norvegicus with 6 samples.

Results

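The genes described are those that encode heterogeneous nuclear ribonucleoproteins (symbols beginning with Hnrnp) and RNA-binding motif proteins (symbols beginning with Rbm followed by a digit or an x), without Rbm14. By this rule on names 59 genes were found among the 32883 rows of the count table, of which 19 were hnRNP and 40 were RBM genes. The RNA came from GH4C1, an established rat pituitary line that makes growth hormone and prolactin, with a wild type genotype in both groups. All cells were grown with horse and fetal calf serum and treated with psoralen, an agent that links paired strands of nucleic acid. The RNA was retrieved with oligo pool A or oligo pool B, in a study that sought the RNAs bound directly by Neat1, the long noncoding RNA on which paraspeckles are built. Each pool had 3 libraries. The labels do not say which sequences either pool held or if either was meant as a control.

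The hnRNP proteins coat nascent transcripts in the nucleus. They influence which exons are kept, how RNA is packaged and exported, and how long it lasts. RBM is a naming class rather than a single family: its members share RNA-recognition domains but act in spliceosomes, in the nucleolus, in RNA methylation and in decay. Many proteins of both kinds also regulate the splicing of their own transcripts, and several hnRNP proteins are found in paraspeckles. What was measured here is the messenger RNA of these genes in the retrieved material, not the proteins. In bulk libraries of this kind, the amount of a transcript in the cells, the number of cells contributing it and the share of it that was retrieved cannot be told apart. Untreated input RNA was not analysed here.

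Total counts per library lay between 1826390 and 3685899. A gene at 0 could still have had up to 3 counts, or 0.814 to 1.64 CPM, the count as parts per 1000000 of its library. Such limits cover counting error only. The 10 most abundant rows held between 20.01% and 27.8% of the counts of a pool A library and between 16.8% and 17.9% of a pool B library. Fitted fold changes use TMM scaling (trimmed mean of M values), which corrects for such composition, while CPM does not. With totals in place of TMM the median log2 fold change of all tested genes moved by -0.136. Of the markers of the labelled cell type, all 6 had counts in every library. Prl had 2578, 1920 and 2168 counts with pool A and 1326, 909 and 1021 with pool B, and Gh1 and Pou1f1 had between 342 and 666 in each library. The granin genes differed in direction. Chga and Scg2 had at least 3209 and 4907 counts with pool A and at most 2875 and 3512 with pool B, whereas Chgb had 13232, 8624 and 13469 with pool A and 80667, 60077 and 91655 with pool B. In contrast, Fshb and Tshb, hormone genes of gonadotrophs and thyrotrophs, were at 0 in all 6. The gonadotroph hormone gene Lhb had 39, 23 and 51 counts with pool A and 120, 73 and 119 with pool B, and the other markers of further cell types that had a row reached at most 21 counts. Nothing in the labels says that the libraries came from separate cultures, so the p-values measure the spread between these libraries, which may be technical.

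All 19 hnRNP genes had enough counts to be tested, whereas 10 of the 40 RBM genes did not. Of these 10, Rbm11, Rbm24, Rbm31y, Rbm44, Rbm46, Rbm47 and Rbmx were listed at 0 in every library. Rbm12 had 1 count in a single pool A library, and Rbm12b and Rbm43 had at most 9 and 8 counts in any library. Rbmx, the X-linked splicing regulator, has close copies in the table: Rbmxl1 had between 164 and 331 counts per library and Rbmxl1b between 41 and 112. How reads that match several copies were counted is not given in the sources used here. The same limit touches the hnRNP genes, since RefSeq (GRCr8) names 50 pseudogenes after Hnrnpa1, 7 after Hnrnpk and 6 after Hnrnpc. In all, 9 of the 19 hnRNP genes and 3 of the 40 RBM genes had a pseudogene named for them. Values of these genes and of Rbmxl1 and Rbmxl1b are therefore uncertain where reads could be divided.

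Most hnRNP transcripts differed between the pools, in both directions. Of the 19 hnRNP genes, 14 passed edgeR's quasi-likelihood test of pool A against pool B (adjusted p under 0.05), 9 of them in favour of pool A and 5 of pool B. Among all 11582 genes tested, 40.6% differed, with 18.6% in favour of pool A and 22.0% in favour of pool B under TMM. For hnRNP genes these shares were 73.7%, 47.4% and 26.3%. Genes with more counts pass such a test more readily, and the shares were not matched for abundance. The balance over all genes depended on the scaling: 1722 genes favoured pool A and 2902 pool B with total counts alone, and 2515 and 2251 with upper-quartile factors. The hnRNP counts under these scalings were 9 and 5, and 9 and 4. Of the 30 RBM genes tested, 12 differed, with 6 in each direction. That makes 40.0% of the tested RBM genes, close to the share among all genes. The members counted passed a filter on low counts, so these shares do not describe the 10 RBM genes that did not pass it.

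A fitted difference of more than 2-fold past the threshold was found for 8 of 19 hnRNP genes and 8 of 30 RBM genes, against 25.4% of all tested genes. Among the hnRNP genes Hnrnph1 was at that limit, with a log2 fold change of 1.001, and fell to 0.86 with total counts alone. Under that scaling Hnrnpul1 (-1.011) and Hnrnpll (-1.005) exceeded 2-fold instead. Log2 fold changes, always pool A over pool B, ran from -2.33 to 4.60 among hnRNP genes and from -1.37 to 1.63 among RBM genes. The upper end among hnRNP genes is Hnrnpab, which had few counts with pool B, and the next value is 4.09 (Hnrnpa3). The median size of the change, whatever its sign, was 0.90 for hnRNP genes, 0.64 for RBM genes and 0.60 for all tested genes. The signed medians were 0.47, 0.16 and 0.02, and with total counts in place of TMM they were 0.35, 0.028 and -0.12. CPM ranges of the pools did not overlap for 14 of 19 hnRNP genes and 14 of 30 RBM genes, against 49.1% of all tested genes. Whether the hnRNP shares and medians differ from the RBM ones was not tested, and they are given as descriptions.

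**Figure D1:**
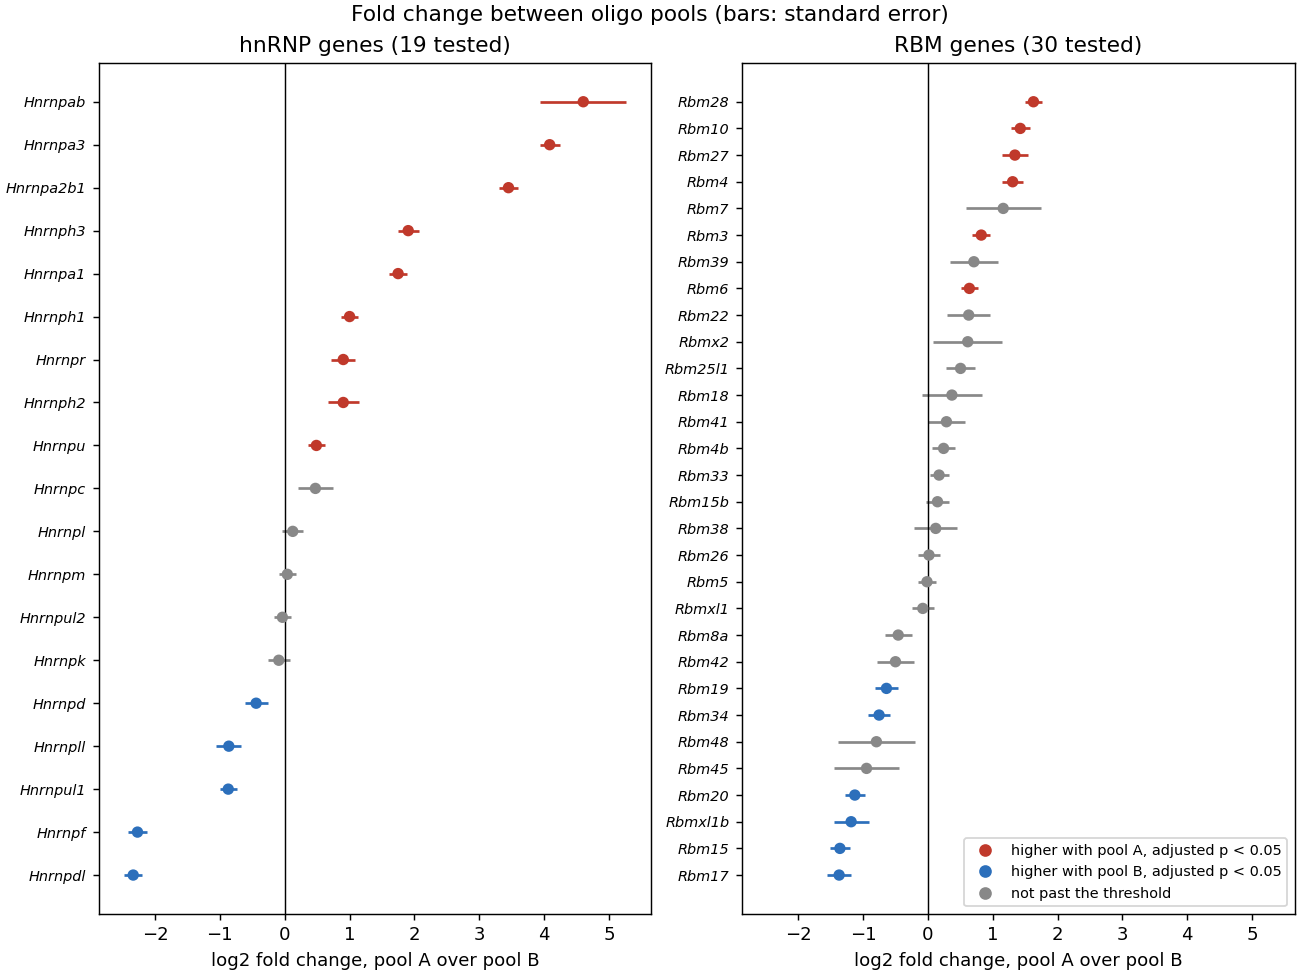
Log2 fold change of pool A over pool B (horizontal axis) for the 19 hnRNP genes (left) and the 30 tested RBM genes (right), with standard errors as bars; red and blue mark genes past an adjusted p of 0.05. The hnRNP genes reach from -2.33 to 4.60, the upper value being the imprecise one of Hnrnpab, and the RBM genes lie between -1.37 and 1.63.

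Hnrnpa1 and its closest relatives, whose products bind exonic and intronic silencers and repress splicing, differed strongly and were all higher with pool A. Hnrnpa1 itself had 4745, 4561 and 5107 CPM in pool A replicates 1, 2 and 3, and 1580, 1384 and 1771 CPM in pool B. The fitted log2 change was 1.75 ± 0.14 (SE; edgeR adjusted p 1.03e-10). Every pool A library was thus far above every pool B library, 3.36-fold in the fit. Hnrnpa2b1, whose product also sorts RNAs for transport, had 1978, 2213 and 2498 CPM with pool A and 254, 211 and 210.0 CPM with pool B. The difference was 3.45 ± 0.15 (SE) on the log2 scale, 10.9-fold, with an edgeR adjusted p of 2.01e-16. Hnrnpa3, a close paralog, had 1123, 1223 and 1368 CPM with pool A and only 78.7, 69.5 and 91.9 CPM with pool B. At 4.09 ± 0.15 (SE), or 17.0-fold, its change was the most significant of all members, with an edgeR adjusted p of 1.77e-17. Within each pool the libraries of both genes lay close together, and the pools were separated by a wide gap.

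The subgroup of Hnrnpd, Hnrnpdl and Hnrnpab, whose products bind AU-rich elements and related sequences and act in mRNA decay and transcription, did not behave as a unit. Hnrnpdl had 87.4, 87.0 and 118 CPM with pool A and 520.5, 510.3 and 591 CPM with pool B, for a fitted log2 change of -2.33 ± 0.14 (SE; edgeR adjusted p 2.49e-13). This 5.05-fold difference was the largest in favour of pool B among all members. Hnrnpd, in the next row of the table, had 61.0, 61.3 and 67.5 CPM with pool A and 99.5, 78.8 and 105 CPM with pool B. Its fold change of -0.44 ± 0.18 (SE) only just passed, with an edgeR adjusted p of 0.048 (range 0.0127 to 0.198 over the alternatives other than the test against a 1.5-fold change). The call was lost in 5 of the 6 fits that left out a library, the exception being the fit without pool B replicate 2 (adjusted p of 0.021).

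Hnrnpab went the other way. It had 42, 271 and 201 counts in pool A replicates 1, 2 and 3 and 1, 16 and 2 counts in pool B. The pools did not overlap, but the libraries of each pool differed from each other more than for any other hnRNP gene. Means were 60.5 ± 47.9 CPM in the pool A libraries and 3.29 ± 4.75 CPM in those of pool B (SD, n = 3 each). The fitted log2 fold change of 4.60 ± 0.66 (SE; edgeR adjusted p 2.09e-06) is the highest of the members and the least precise. The gene passed the filter on low counts through pool A, where it is high. With a filter of at least 10 counts in every library it was not tested, which left 8 hnRNP genes in favour of pool A. Under that filter 4 favoured pool B, because Hnrnpd lost its call there (edgeR adjusted p 0.0511). The fold change of Hnrnpab was 6.82 when pool B replicate 2 was left out. It was 3.97 in the absence of pool B replicate 1 and 3.81 in that of pool A replicate 2.

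Among the genes of the F and H group, whose products bind runs of guanines and adjust splicing and polyadenylation, Hnrnpf stood against its relatives. Hnrnpf had 134, 147 and 148 CPM with pool A and 734.5, 659 and 891 CPM with pool B. That is a log2 fold change of -2.27 ± 0.14 (SE), 4.82-fold in favour of pool B, with an edgeR adjusted p of 5.02e-13. Hnrnph1 had 687, 698 and 769 CPM with pool A and 404, 367 and 417 CPM with pool B, and was higher with pool A by 1.001 ± 0.13 on the log2 scale (SE; edgeR adjusted p 2.82e-07). Hnrnph3 moved further in that direction, from 54.9, 61.9 and 59.4 CPM with pool B to 180.4, 221 and 193 CPM with pool A (log2 fold change 1.91 ± 0.16, SE). Hnrnph2, the X-linked copy closest to Hnrnph1, was less abundant, with 59.96, 53.0 and 43.9 CPM with pool A and 27.6, 41.1 and 25.7 CPM with pool B. Its fold change of 0.90 ± 0.24 (SE) passed with an edgeR adjusted p of 0.00307. So 3 members of this group favoured pool A and 1 favoured pool B.

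Hnrnpu, a scaffold protein that ties nuclear RNA to chromatin, was abundant in both pools. It had 2027, 1788 and 1907 CPM with pool A and 1399, 1427 and 1685 CPM with pool B. The pools differed by 0.49 ± 0.13 (SE) on the log2 scale, a 1.40-fold change with an edgeR adjusted p of 0.0044. Its relative Hnrnpul1, linked to the response to DNA breaks, was higher with pool B. There it had 532, 665 and 537 CPM, against 289.8, 274 and 292 CPM with pool A, a fold change of -0.87 ± 0.13 (SE; edgeR adjusted p 4.08e-06). Hnrnpul2 did not pass (-0.03 ± 0.13, SE).

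Hnrnpll, a regulator of exon choice best known from lymphocytes, had 67.3, 57.7 and 50.2 CPM with pool A and 87.9, 143 and 125 CPM with pool B. The fitted log2 change was -0.86 ± 0.19 (SE; edgeR adjusted p 0.000661). Hnrnpr, which is related to Syncrip, had 129.7, 118 and 101 CPM with pool A and 84.2, 54.8 and 66.6 CPM with pool B, a fold change of 0.90 ± 0.18 (SE). For both genes the pools did not overlap. Hnrnpc, Hnrnpk, Hnrnpl, Hnrnpm and Hnrnpul2 were the 5 hnRNP genes that did not pass, with log2 fold changes between -0.09 and 0.47 and overlapping pools. Their products include the pre-mRNA packaging protein encoded by Hnrnpc and the poly(C)-binding protein encoded by Hnrnpk. For Hnrnpk, Hnrnpl, Hnrnpm and Hnrnpul2 the change was smaller than its standard error, and no direction is given.

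**Figure D2:**
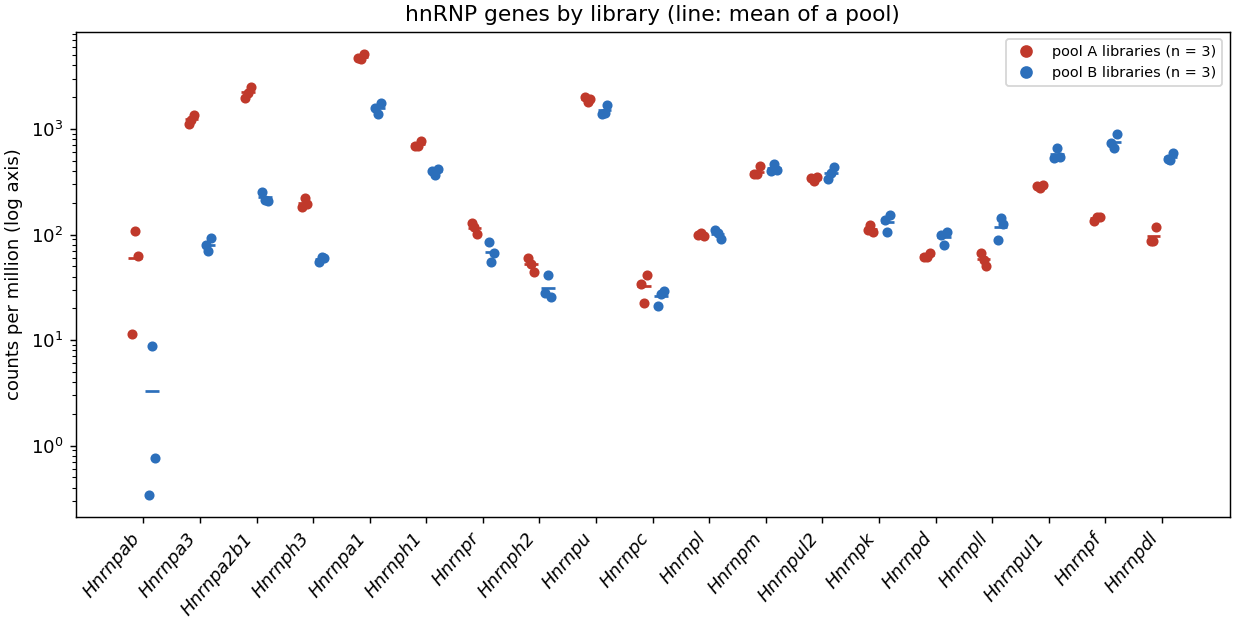
CPM on a log axis for each of the 19 hnRNP genes, ordered by fold change; points are libraries (red pool A, blue pool B, n = 3 each) and lines are pool means. Hnrnpa3 and Hnrnpa2b1 show tight, widely separated pools, Hnrnpab shows a wide scatter within each pool, and Hnrnpf and Hnrnpdl lie higher with pool B.

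Among RBM genes, Rbm28 had the largest difference in either direction. It encodes a nucleolar protein of ribosome assembly and had 811, 832.5 and 831 CPM with pool A and 246, 322.5 and 319.7 CPM with pool B. The log2 fold change was 1.63 ± 0.14 (SE), 3.09-fold, with an edgeR adjusted p of 1.53e-10. The other nucleolar members that passed did not follow it. Rbm19, which acts in the processing of ribosomal RNA, had 46.7, 54.6 and 66.2 CPM with pool A and 90.3, 102 and 95.3 CPM with pool B, a fold change of -0.64 ± 0.18 (SE). Rbm34 had 60.5, 60.5 and 67.5 CPM with pool A and 111, 113 and 126 CPM with pool B, a fold change of -0.75 ± 0.17 (SE). Their edgeR adjusted p-values were 0.00498 and 0.000541.

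The related splicing regulators Rbm5, Rbm6 and Rbm10 divided as well. Rbm10 had 263, 251.5 and 247 CPM with pool A and 100.5, 106 and 108 CPM with pool B, for a log2 change of 1.43 ± 0.14 (SE; edgeR adjusted p 3.79e-09). Rbm6 had 435, 509.8 and 511 CPM with pool A and 347, 326 and 360.2 CPM with pool B, with 0.64 ± 0.13 (SE; edgeR adjusted p 0.000223). Rbm5, in the row before Rbm6, did not pass (-0.01 ± 0.14, SE). Its unscaled CPM was 180.4, 214 and 225 with pool A and 230.4, 227 and 232 with pool B. Rbm5 CPM thus did not overlap between pools, while the fitted difference, which corrects for the composition of the libraries, was near 0.

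A further 3 RBM genes were higher with pool A. Rbm4, a regulator of splicing and translation, had 164, 169 and 202 CPM with pool A and 65.8, 96.4 and 77.9 CPM with pool B (log2 fold change 1.31 ± 0.16, SE; edgeR adjusted p of 1.62e-07). Rbm27, whose product works with the nuclear exosome on polyadenylated RNA, had 89.5, 91.4 and 96.3 CPM with pool A and 50.8, 29.6 and 39.0 CPM with pool B (1.34 ± 0.20, SE). Rbm3, a cold-inducible protein gene, had 313, 280.0 and 282 CPM with pool A and 184, 169 and 194.5 CPM with pool B (0.82 ± 0.14, SE; edgeR adjusted p of 1.81e-05). In each of these genes every pool A library exceeded every pool B library.

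In favour of pool B, the leading members were Rbm17 and Rbm15. Rbm17, a spliceosome-associated factor that acts in splice site choice, had 56.7, 49.0 and 41.1 CPM with pool A and 112.5, 166 and 145 CPM with pool B. The fitted log2 change was -1.37 ± 0.19 (SE; edgeR adjusted p 9.51e-07). Rbm15, an adaptor that brings the adenosine methylation complex to RNA, had 64.3, 66.8 and 71.8 CPM with pool A and 171, 199 and 204 CPM with pool B, a change of -1.36 ± 0.15 (SE; edgeR adjusted p 3.73e-08). Rbm20, known for regulating titin splicing in heart, had 90.6, 81.1 and 96.6 CPM with pool A and 215, 190.0 and 241 CPM with pool B (-1.13 ± 0.15, SE). Rbmxl1b had 17.4, 16.2 and 13.8 CPM with pool A and 38.2, 46.0 and 35.9 CPM with pool B (-1.18 ± 0.27, SE). For each of these 4 genes the pools were separated. Rbmxl1b, a copy of Rbmx, shares the read assignment limit given for the copies.

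**Figure D3:**
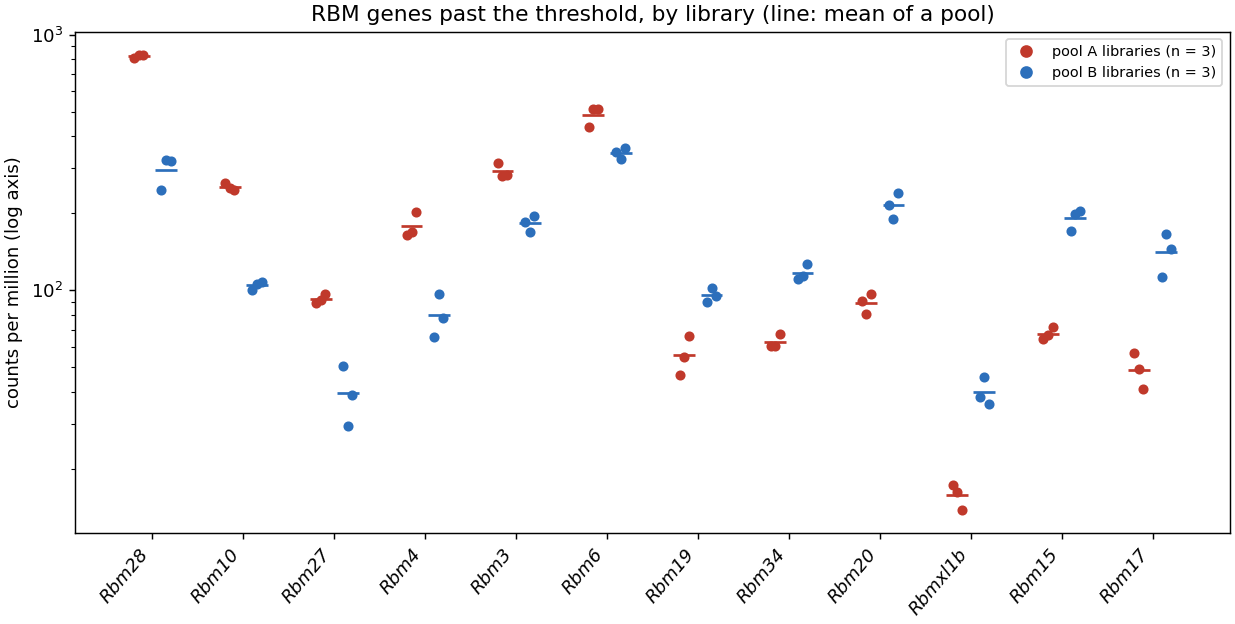
CPM on a log axis for the 12 RBM genes past the threshold, ordered by fold change; points are libraries (red pool A, blue pool B, n = 3 each) and lines are pool means. From Rbm28 to Rbm6 the pool A libraries lie above those of pool B, and from Rbm19 to Rbm17 below them.

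The remaining 18 tested RBM genes did not pass, with log2 fold changes between -0.95 and 1.16. Of these, Rbm18, Rbm38, Rbm41, Rbm42, Rbm48 and Rbmx2 had at most 111 counts in any library and standard errors from 0.28 to 0.60. Rbm7, which encodes a subunit of a nuclear exosome adaptor, had 38, 23 and 44 counts with pool A and 13, 1 and 28 with pool B, for a log2 change of 1.16 ± 0.58 (SE) that passed without pool B replicate 3 (adjusted p of 0.015). Rbm45 had 49, 15 and 7 counts with pool A and 33, 38 and 41 with pool B, and it passed without pool A replicate 1 (adjusted p of 0.0174). For Rbm39, a splicing coactivator, the counts were 49, 86 and 63 against 33, 37 and 38, and the difference passed without pool A replicate 1 (adjusted p of 0.0428). These genes have wide spreads, and 1 library decides each call. Rbm8a, a core protein of the exon junction complex, had 37.7, 54.6 and 42.7 CPM with pool A and 75.3, 61.3 and 67.3 CPM with pool B. Its fold change of -0.46 ± 0.21 (SE) missed the threshold with an edgeR adjusted p of 0.0796 (range 0.0212 to 0.267 over the same alternatives). It passed in limma-voom, under scaling by total counts, and when pool A replicate 2 was left out (adjusted p of 0.0351). Rbm25l1, with 0.50 ± 0.22 (SE) and an adjusted p of 0.072, passed with upper-quartile factors and without pool A replicate 3 (adjusted p of 0.0284). For Rbm22, a protein of the active spliceosome, the change was 0.63 ± 0.33 (SE), and for Rbm33 it was 0.17 ± 0.15 (SE).

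Paralogs were compared within libraries, because the ratio of a pair of genes inside a library does not depend on how libraries are scaled. Of 20 pairs listed, 14 had both members tested. In 13 of the 14 the ratio in the 3 pool A libraries did not overlap that in the 3 pool B libraries. The corresponding share for other pairs of genes was not computed, and since CPM did not overlap for 49.1% of single genes, this count cannot be read as a trait of paralogs. With 3 libraries against 3, the exact permutation test over 20 assignments cannot give a two-sided p under 0.1. All 13 pairs reached that smallest value (0.108 after Benjamini-Hochberg adjustment over the 14 pairs), so none can pass 0.05 in this test.

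The widest such difference among pairs of abundant genes was that of Hnrnpf and Hnrnph1. The log2 ratio of Hnrnpf to Hnrnph1 counts was -2.36, -2.24 and -2.38 in the pool A libraries and 0.86, 0.84 and 1.10 in the pool B libraries. Hnrnph1 had more counts with pool A and Hnrnpf had more with pool B, a shift of -3.26 between pools. Hnrnpa1 to Hnrnpa3 was 2.08, 1.90 and 1.90 with pool A and 4.32, 4.31 and 4.27 with pool B. Both genes were higher with pool A, and Hnrnpa3 was so by more. Hnrnpa1 to Hnrnpa2b1 likewise gave 1.26, 1.04 and 1.03 with pool A and 2.64, 2.71 and 3.08 with pool B.

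Hnrnpd and its neighbour Hnrnpdl had log2 count ratios of -0.52, -0.50 and -0.80 with pool A and -2.39, -2.69 and -2.49 with pool B. Against the scarce Hnrnpab, Hnrnpd shifted by -5.28, on ratios that ranged from -0.80 to 2.41 with pool A and from 3.13 to 7.61 with pool B. For Hnrnpu and Hnrnpul1 the ratios were 2.81, 2.71 and 2.71 against 1.40, 1.10 and 1.65. Hnrnpul1 and Hnrnpul2 crossed: Hnrnpul1 had fewer counts in each pool A library (-0.23, -0.24 and -0.28) and more in each pool B library (0.66, 0.80 and 0.31). Hnrnpl and Hnrnpll gave 0.55, 0.85 and 0.94 against 0.31, -0.47 and -0.45, the smallest gap between pools among the pairs of hnRNP genes that did not overlap. The pair without separation was Hnrnph1 and Hnrnph2, with ratios from 3.52 to 4.13 with pool A and from 3.15 to 4.01 with pool B (exact p of 0.8).

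RBM paralogs separated in the same manner. Rbm15 had fewer counts than Rbm15b in every pool A library (log2 ratio -0.51, -0.15 and -0.72) and more in every pool B library (0.87, 0.95 and 1.23). Rbm15b, which shares the methylation adaptor role, did not pass on its own (0.15 ± 0.17, SE). Rbm5 to Rbm10 gave -0.54, -0.24 and -0.14 with pool A and 1.20, 1.10 and 1.10 with pool B. For Rbm26 and Rbm27, which act together in nuclear RNA decay, the ratio was -0.12, 0.08 and -0.40 with pool A and 0.92, 1.53 and 1.26 with pool B. Rbm4 and Rbm4b, neighbours in the table, gave 1.16, 0.97 and 0.88 against -0.40, 0.48 and -0.26. These near-identical genes may share reads. The adjacent genes Rbm5 and Rbm6 had a smaller but non-overlapping shift of -0.66.

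**Figure D4:**
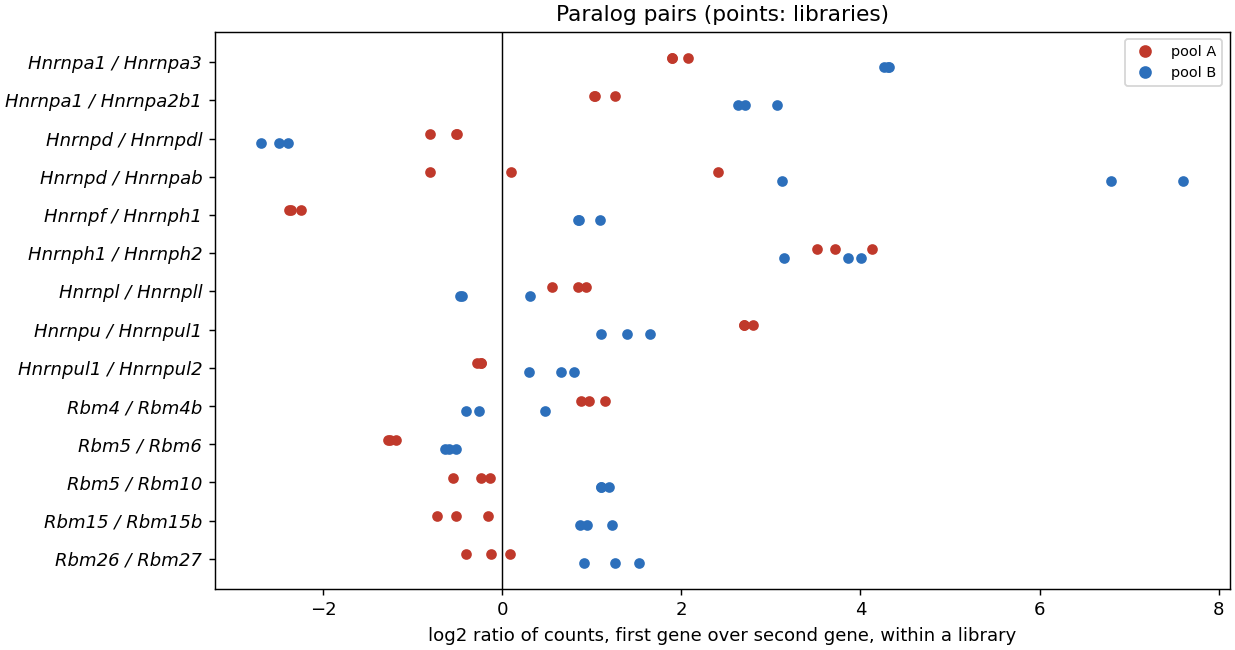
Log2 ratio of the counts of both genes of a pair within each library (horizontal axis) for 14 paralog pairs; red points are pool A libraries and blue points pool B libraries. Red and blue points are separated in 13 pairs and mixed for Hnrnph1 and Hnrnph2.

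Summed over all members, hnRNP transcripts took 12536, 12551 and 13763 CPM of the pool A libraries and 6857, 6765 and 7693 CPM of the pool B libraries. RBM transcripts took 3278, 3411 and 3545 CPM with pool A and 2736, 2841 and 2945 CPM with pool B. Per RBM count there were 3.80 ± 0.10 hnRNP counts in pool A libraries and 2.50 ± 0.12 in pool B libraries (SD, n = 3 each), which is 1.52 times as many with pool A. Without the most abundant member of each class it was 1.45 times as many. Hnrnpa1, Hnrnpa2b1 and Hnrnpa3 together held 62.6%, 63.7% and 65.2% of the hnRNP counts in the pool A libraries and 27.9%, 24.6% and 26.95% in the pool B libraries. Without these 3 genes, an alternative chosen after seeing the data, the ratio was 1.37 ± 0.05 in pool A libraries and 1.84 ± 0.06 in pool B libraries (SD, n = 3 each). That is 0.747 times as many with pool A, and since genes much higher with pool A were removed while Hnrnpf and Hnrnpdl were kept, the choice itself lowers the ratio. CPM is not divided by gene length, so these sums weight long transcripts more.

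**Figure D5:**
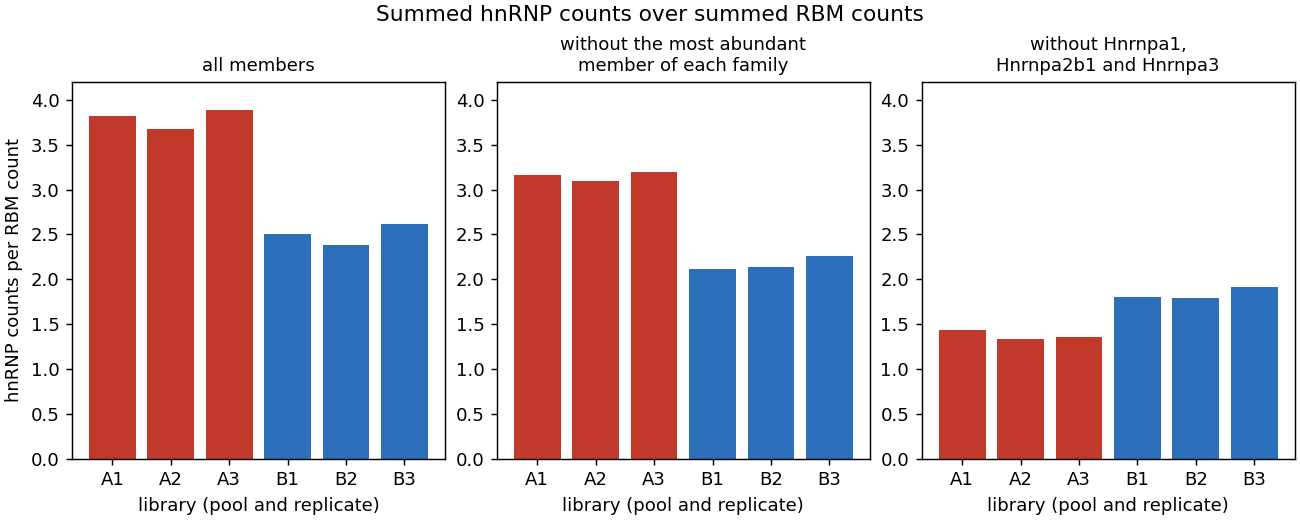
Summed hnRNP counts per summed RBM count in each library (bars; red pool A, blue pool B) for all members, without the most abundant member of each class, and without Hnrnpa1, Hnrnpa2b1 and Hnrnpa3. Pool A bars are higher in the first and second panels and lower in the third.

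Other genes of the same functions were compared from a list that holds hnRNP proteins under other symbols and further regulators of splicing and stability. Of its 49 names 47 had a row and 40 were tested. At the same threshold 8 favoured pool A and 10 favoured pool B, which is 45.0% of those tested, near the 40.6% among all genes. The median log2 fold change was 0.13. The count higher with pool A was 5 without pool A replicate 1. The 2 parts of the list differed. Of the 8 tested hnRNP genes under other symbols, 5 passed (62.5%), 2 in favour of pool A and 3 of pool B. Of the 32 other regulators tested, 13 passed (40.6%), 6 in favour of pool A and 7 of pool B. Raly, a relative of Hnrnpc, was higher with pool A, with 593 ± 40 CPM (SD, n = 3) against 156 ± 17 CPM (SD, n = 3) and a log2 fold change of 2.08 ± 0.14 (SE). Pcbp2, a poly(C)-binding protein gene, was higher with pool B, with 454 ± 81 CPM (SD, n = 3) against 82.2 ± 6.4 CPM (SD, n = 3) and a fold change of -2.32 ± 0.15 (SE). Its relative Pcbp3 gave -2.08 ± 0.21 (SE).

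Khdrbs2 and Rbms3, which bind U- and A-rich RNA, were also higher with pool B, at -2.35 ± 0.15 and -2.36 ± 0.28 (SE). Cirbp, singled out after its values were seen because it is the cold-inducible relative of Rbm3, had 106 ± 6 CPM in pool A libraries and 261 ± 1 CPM in pool B libraries (SD, n = 3 each). Its fold change of -1.15 ± 0.14 (SE; edgeR adjusted p 1.27e-07), was opposite in sign to the 0.82 of Rbm3. The Cirbp and Rbm3 difference itself was not tested.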

How the data were processed

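Counts per gene were deposited by the authors as whole numbers for 6 libraries, with Ensembl gene identifiers and names. STAR and featureCounts are named in the submitters' processing notes. Versions, settings and the genome build are not given in the sources used here. The other deposited columns hold the authors' means of the counts per pool and were not used. The members and gene lists were chosen with earlier results of these data known.

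All genes were fitted together with edgeR 4.0.16 in R 4.3.3 (TMM normalization, expression filter by group, quasi-likelihood test, pool as the only term). P-values were adjusted by the Benjamini-Hochberg method over 11582 genes, with a threshold of 0.05, and the fit was tested on simulated data. Standard errors follow from the fold change and the F statistic. CPM values use total counts. Paralog ratios are of counts plus 0.5, with exact permutation tests. Alternatives used DESeq2 1.42.0 and limma 3.58.1, other scalings and filters, a replicate block and fits without each library.

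Genes named were the 10 hnRNP and 10 RBM members with the largest changes among those past the threshold, with pools that do not overlap and a mean of at least 10 counts. Added were the 5 most abundant of each class, the paralog pairs, and the 5 largest changes of the list of related genes; other members named complete a count or have a call that 1 library decides. Libraries of a pool differed by 6.37 to 23.3 times the sampling variance of counts (chi-square per degree of freedom). They thus differed by more than repeated counting of the same library would give. Whether they were separate preparations of the same material cannot be read from this.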

Additional observations from a re-analysis of the deposited data

How the results depend on the processing

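Of 779 refits of the 49 tested members, 750 left the call as it was, 21 lost the call (13 of them Hnrnpd) and 8 gained it; no called member changed sign, while 9 members without a call did so under at least 1 alternative. The test against a 1.5-fold change, stricter by construction, left 6 hnRNP, 4 RBM and 3 related genes in favour of pool A, beside 1156 of all 11582 genes, and 3, 4 and 9 in favour of pool B, beside 1521. Scaling by total counts alone moved the median of all tested genes by -0.136 and upper-quartile factors moved it by 0.103. The hnRNP median was then 0.35 and 0.58, and the RBM median 0.028 and 0.26. The hnRNP median was 0.32 with at least 10 counts in every library, a filter that fewer genes pass. As reported it is the value of a single gene, Hnrnpc. The hnRNP median ranged from 0.34 to 0.58 without a library, while the RBM median ranged from 0.14 to 0.20. Counts without a library ranged from 9 to 9 and from 4 to 5 for hnRNP genes higher with pool A and pool B, from 6 to 7 for RBM genes in each direction, and from 5 to 8 and from 10 to 11 for related genes. The summed ratio of pool A over pool B ranged from 1.48 to 1.55 without a library, was 1.45 without the most abundant member of each class and 0.747 without Hnrnpa1, Hnrnpa2b1 and Hnrnpa3.

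Same-numbered libraries did not deviate together (r of 0.0409, -0.0195 and 0.02); the numbers are not treated as pairing libraries. With the replicate block, 9 hnRNP genes favoured pool A and 4 favoured pool B, 6 RBM genes in each direction, with medians of 0.46 and 0.16; Hnrnpd alone lost its call (adjusted p of 0.0662). Depth limits what can be said of the 10 RBM genes that were not tested and of Hnrnpab with pool B.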
